A study of Mus musculus with 8 samples.

Results

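The nuclear genes for the subunits of respiratory complexes II, III, IV and V were compared between Zeb1-/- EpCAM+ and Zeb1-/- EpCAM- hematopoietic stem and progenitor cells (HSPCs). Members were the protein-coding rows of the deposited table whose symbol begins with Uqcr, Atp5 or Cox4 to Cox8 followed by a letter, or is Sdha, Sdhb, Sdhc or Sdhd. This gave 48 of 54532 rows, 4 for complex II, 8 for complex III, 18 for complex IV and 18 for complex V. The rule follows symbols, so it leaves out Cyc1, the cytochrome c1 subunit of complex III, and takes in Cox7a2l, which is known as a factor of respiratory supercomplexes rather than as a core subunit. All cells came from the bone marrow of C57BL/6 mice aged 8 to 12 weeks that carried conditional Zeb1 alleles and Mx1-Cre, an interferon-responsive Cre that pIpC induces in blood cells and also in some other tissues. Cells were collected on day 14 from the end of pIpC treatment and sorted as LSK cells (lineage-negative, SCA-1+ and C-KIT+) with or without EpCAM on the surface, with 4 libraries per fraction. Both fractions had been through Zeb1 deletion, so no library from a control mouse enters the comparison, and the sources used here do not say whether libraries of the same number came from 1 mouse. Between 14114491 and 17073546 reads per library were counted on genes.

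Complex II oxidizes succinate and passes the electrons to ubiquinone, complex III hands them to cytochrome c, and complex IV uses them to reduce oxygen. Complexes III and IV also pump protons across the inner mitochondrial membrane, and complex V, the ATP synthase, lets the protons flow back and makes ATP. Complex II is built from nuclear genes alone, while III, IV and V combine nuclear subunits with a few that mitochondrial DNA encodes. Quiescent hematopoietic stem cells are known to lean on glycolysis, and oxidative phosphorylation rises as they differentiate.

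The labels were checked first. Epcam, the gene of the sorting marker, had 3580, 2831, 3053 and 2818 counts in EpCAM+ libraries 1 to 4 and 144, 51, 21 and 17 in EpCAM- libraries 1 to 4. Zeb1 had 363, 261, 373 and 290 counts in EpCAM+ libraries and 214, 189, 157 and 129 in EpCAM- libraries, and counts per gene do not tell a deleted allele from an intact one. Of 10 genes listed for LSK cells 3 were higher in EpCAM+ libraries (Lmo2, Ly6a and Kit), 1 was lower (Myb) and 6 were not called. Kit, the gene of the sorting marker C-KIT, reached 285 CPM in EpCAM+ and 208 CPM in EpCAM- libraries, where CPM is the read count scaled to a library of 1000000 reads. Ly6a, which encodes SCA-1, reached 201 CPM in EpCAM+ and 41.3 CPM in EpCAM- libraries.

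Of the 48 members, 43 had enough reads for a test. With edgeR's quasi-likelihood test and Benjamini-Hochberg adjustment over all 13560 tested genes (adjusted p under 0.05), 22 members were lower in Zeb1-/- EpCAM+ HSPCs and 0 were higher. The 22 make up 51.2% of the tested members, where 20.8% of all tested genes were lower and 21.8% were higher. DESeq2 and limma also called 0 members higher, and 0 members were higher at an unadjusted p under 0.05, while 25 were lower at that level. The median log2 fold change of the 43 members was -0.32, against 0.02 over all tested genes. Of the 43 values 41 were below 0 in this fit, as were 6510 of all 13560 tested genes. Apart from Cox6a2, which had few reads, the changes called were small, from a fall of 16.8% to a fall of 46.2%. Most members are abundantly expressed, and abundant genes as a class leaned the same way: of the 3533 tested genes with an average log2 CPM above 6, 41.7% were lower and 12.2% higher, with a median of -0.17. Of these 3533 genes, 2509 had a value below 0.

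Libraries with the same number deviated together, so a fit with the replicate number as a block is given beside each call of a member that it changes. In that paired fit 31 members (72.1%) were lower and 0 were higher, where 24.7% of all tested genes were lower and 25.6% higher, and where 50.1% of the abundant genes were lower. The 22 members called without pairing were all among the 31. The other 9 were Sdha, Uqcr10, Cox7a2, Cox6b1, Cox7c, Cox4i1, Atp5mpl, Atp5c1 and Atp5k. Of these 9, Cox7a2 and Cox6b1 stayed lower in each of 7 further paired fits (with a length offset, with 2 other scalings or with 1 pair left out), while with upper-quartile scaling the other 7 lost the call and with library totals all but Cox7a2, Cox6b1 and Atp5mpl did. Without any model, the 4 EpCAM+ values lay below the 4 EpCAM- values, with no overlap, for 21 members (20.0% of all tested genes did so) and above them for 0 (20.1% of all tested genes). Of the 3533 abundant genes, 1415 lay below without overlap and 366 above. In 34 of the 43 tested members the EpCAM+ library lay below the EpCAM- library of the same number in all 4 pairs. The same held for 4146 of all 13560 tested genes and for 1989 of the 3533 abundant genes.

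**Figure D1:**
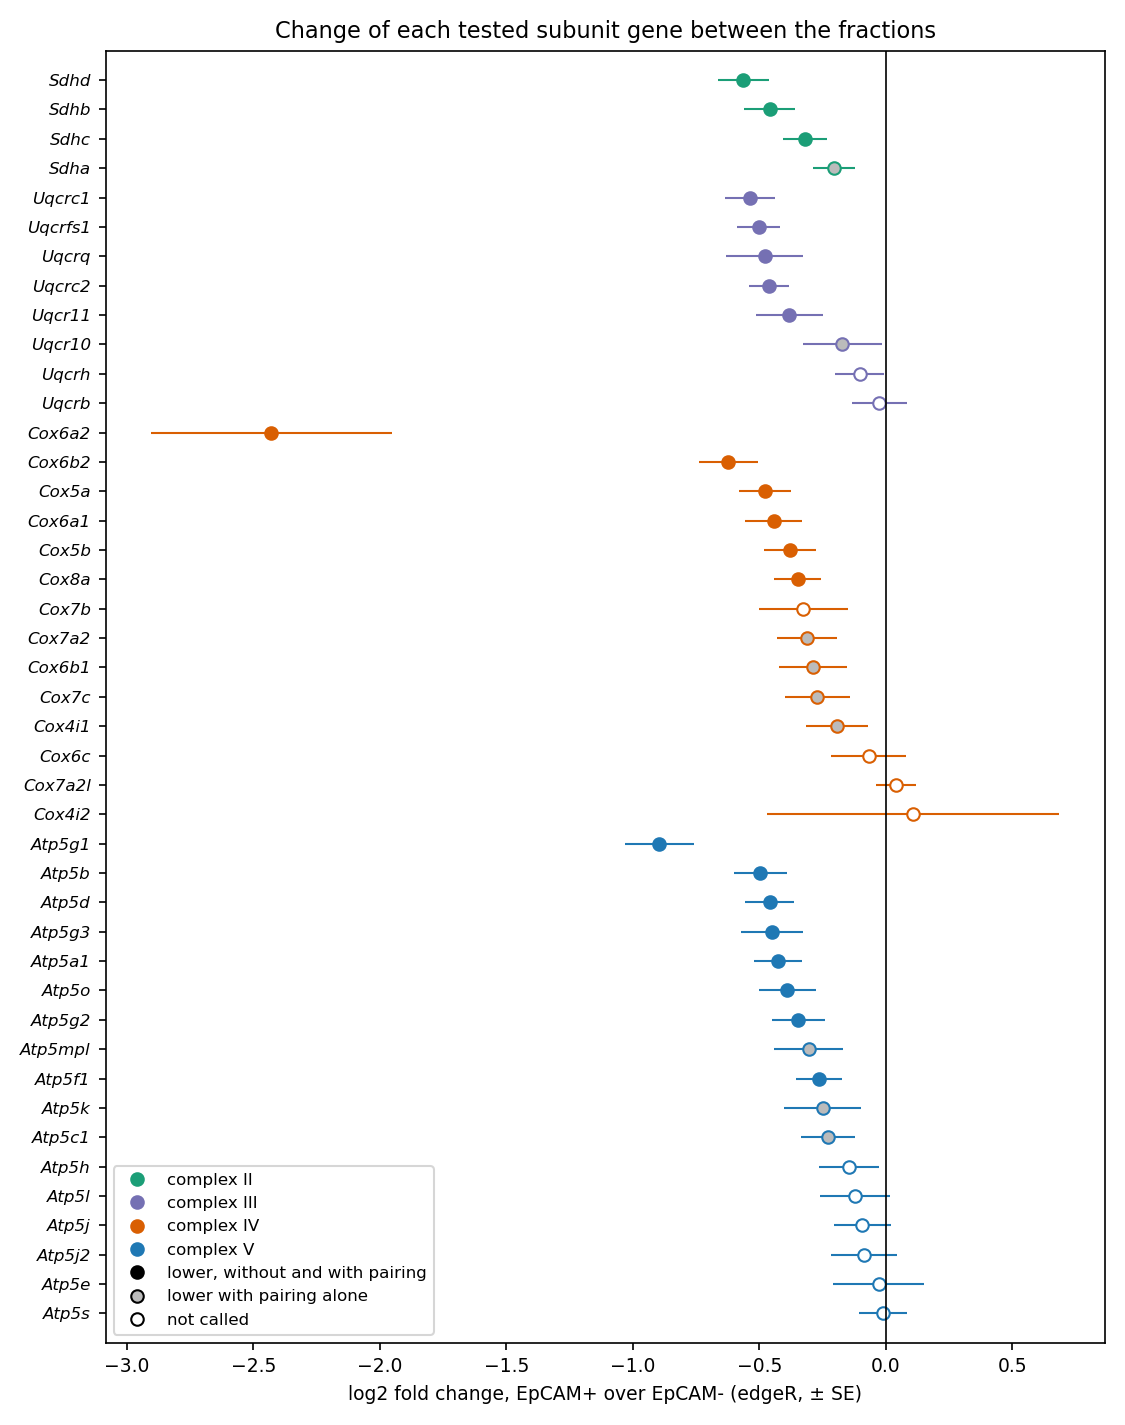
Log2 fold change (EpCAM+ over EpCAM-, edgeR, with its standard error) of the 43 tested subunit genes, ordered within complexes II to V. Filled points mark the 22 members lower in both fits and grey points the 9 lower with pairing alone. Open points mark the 12 called in neither. Of the 43 points, 41 lie left of 0, as did the values of 2509 of the 3533 abundant genes.

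The fractions also differed in the markers of blood cell types, and the share of that in the results below was not tested. In these bulk libraries, fewer cells of a type and less RNA per cell cannot be told apart. Of 11 hematopoietic stem cell markers 9 were higher in EpCAM+ HSPCs, where they summed to 486 to 711 CPM per library against 125 to 272 CPM in EpCAM- libraries. Of 9 markers of myeloid-primed progenitors 8 were lower, with 1012 to 1815 CPM in EpCAM+ and 12000 to 18840 CPM in EpCAM- libraries, led by Mpo, the neutrophil granule enzyme myeloperoxidase. Erythroid markers (6 of 9 tested lower, 1 higher) summed to 96.8 to 291 CPM against 2030 to 6894 CPM, and mast cell or basophil markers (4 of 6 lower) to 69.2 to 92.4 CPM against 238 to 510 CPM, with Cma1 at 0 in every EpCAM+ library. Conventional dendritic cell markers (6 of 8 higher) summed to 325 to 696 CPM in EpCAM+ and 162 to 284 CPM in EpCAM- libraries, with Tlr11 at 0 in the latter. Plasma cell markers (3 of 5 higher) summed to 389 to 3978 CPM against 171 to 259 CPM, and Jchain, the joining chain of secreted antibodies, took 0.354% of all reads in EpCAM+ library 1. Among 19 proliferation genes, 14 fell (73.7%) and 0 rose, and their median log2 fold change was -0.34. For these lists, the shares over all tested genes were 20.8% lower and 21.8% higher. Over abundant genes they were 41.7% and 12.2%, with a median of -0.17.

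The members together took 1.32%, 1.69%, 1.53% and 1.61% of the counted reads in EpCAM+ libraries 1 to 4 and 1.70%, 2.02%, 1.84% and 1.95% in EpCAM- libraries 1 to 4. The fractions did not overlap, but EpCAM+ library 2 almost reached EpCAM- library 1. Within each fraction library 1 was lowest and library 2 highest. The median log2 difference within pairs 1 to 4 was -0.32, -0.40, -0.32 and -0.26, with 39, 43, 36 and 35 of the 43 tested members lower in the EpCAM+ library. EpCAM+ library 1, the library with the Jchain reads, was furthest from the EpCAM- mean (median log2 deviation of the members -0.55), and without it 18 members were called lower and the median was -0.26. Without EpCAM- library 2, the library with the most reads on members, 20 were called lower and the median was -0.24.

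**Figure D2:**
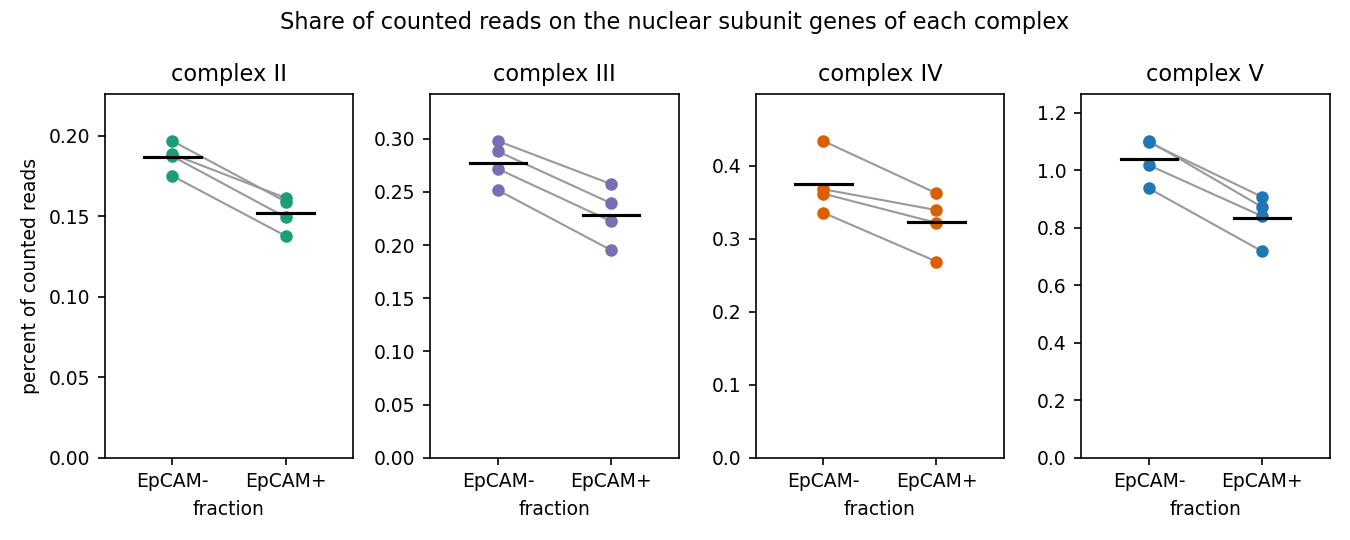
Percent of counted reads on the nuclear subunit genes of complexes II, III, IV and V in each library, with gray lines joining libraries of the same number and black bars at the means. In every complex each line falls from EpCAM- to EpCAM+, with complex V the largest share, at 0.936% to 1.10% in EpCAM- and 0.718% to 0.907% in EpCAM+ libraries.

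**Figure D3:**
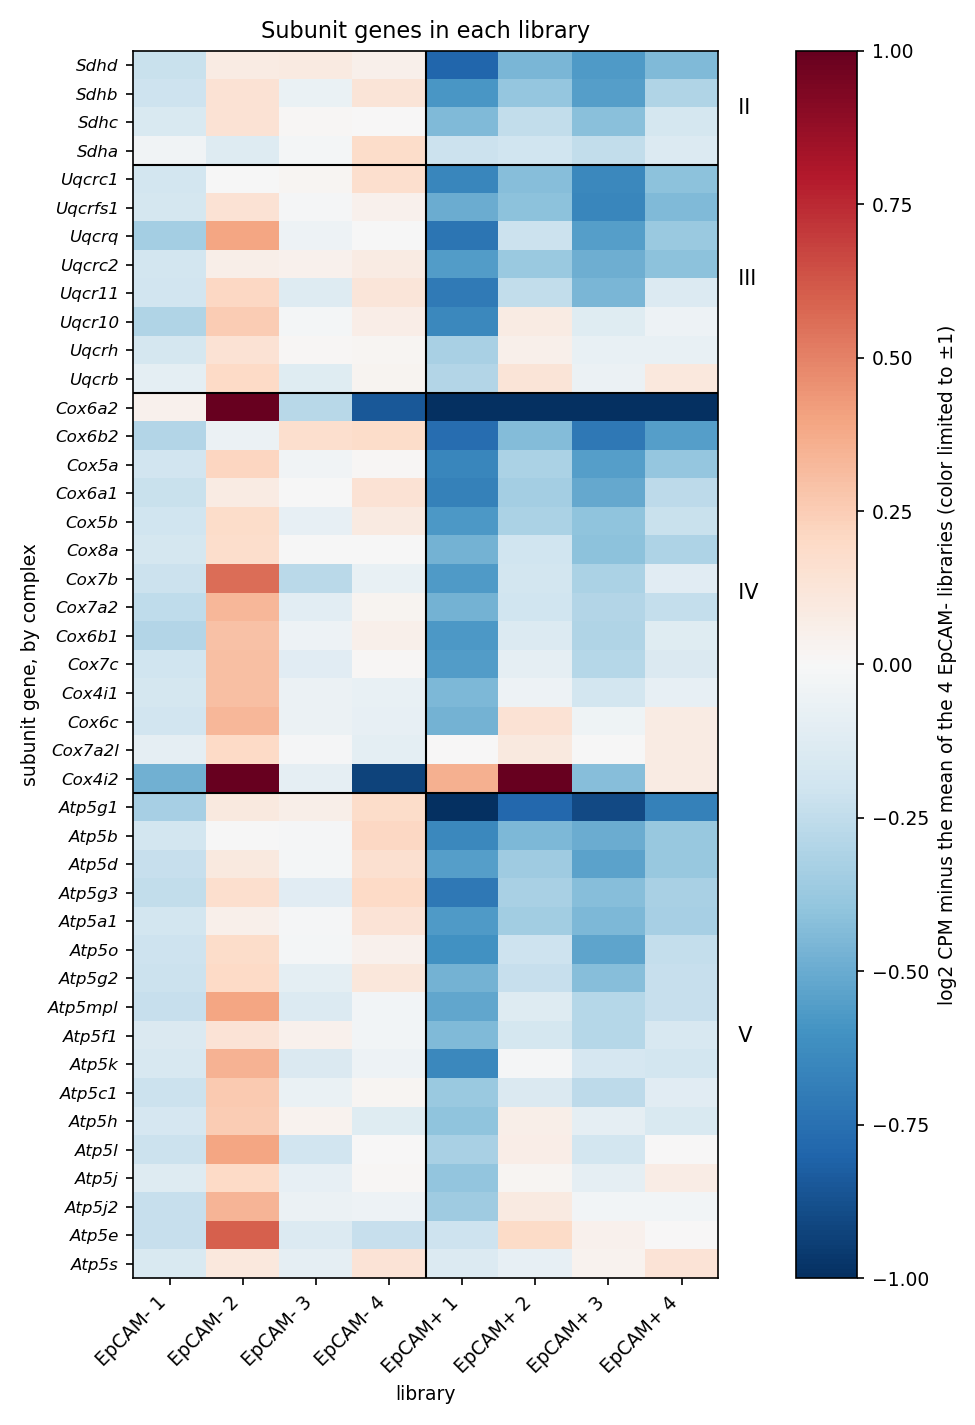
Log2 CPM of each tested subunit gene in each library minus the mean of the 4 EpCAM- libraries, with color limited to 1 in both directions. Blue runs through EpCAM+ libraries 1 to 4 for most rows and is deepest in library 1, while EpCAM- library 2 is red for most rows.

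The promoters of the 4 genes with the smallest adjusted p among members that have an entry in the RefSeq promoter table (build GRCm38.p6) are shown because their transcripts moved together. Each runs from 250 bases before the annotated start to 50 bases after it, 5′ to 3′ on the strand of the gene. Capitals mark matches on either strand to 7 short motifs: GCGCATGC for NRF1, CCGGAAG for ETS factors such as GABP, GGGCGG for SP1 or KLF factors, ATGGCGG for YY1, AAGGTCA for ERR, TGACGTCA for the cAMP response element (CRE) and CCAAT for the CCAAT box. Of these, NRF1, GABP, YY1 and ERR are known regulators of respiratory genes.
Atp5g1 (chr11:96075582-96075881, minus strand): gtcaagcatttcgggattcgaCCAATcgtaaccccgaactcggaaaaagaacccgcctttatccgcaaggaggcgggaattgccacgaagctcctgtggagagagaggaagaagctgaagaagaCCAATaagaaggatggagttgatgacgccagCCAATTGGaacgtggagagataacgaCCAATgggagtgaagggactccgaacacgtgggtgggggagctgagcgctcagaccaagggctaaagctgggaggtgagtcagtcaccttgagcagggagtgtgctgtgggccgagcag
Uqcrfs1 (chr13:30545267-30545566, minus strand): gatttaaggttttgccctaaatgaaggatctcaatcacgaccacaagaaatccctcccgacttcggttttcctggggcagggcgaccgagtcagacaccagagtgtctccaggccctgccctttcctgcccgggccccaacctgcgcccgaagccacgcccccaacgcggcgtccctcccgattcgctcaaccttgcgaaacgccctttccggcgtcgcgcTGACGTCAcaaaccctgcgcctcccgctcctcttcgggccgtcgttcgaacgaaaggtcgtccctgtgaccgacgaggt
Sdhd (chr9:50603800-50604099, minus strand): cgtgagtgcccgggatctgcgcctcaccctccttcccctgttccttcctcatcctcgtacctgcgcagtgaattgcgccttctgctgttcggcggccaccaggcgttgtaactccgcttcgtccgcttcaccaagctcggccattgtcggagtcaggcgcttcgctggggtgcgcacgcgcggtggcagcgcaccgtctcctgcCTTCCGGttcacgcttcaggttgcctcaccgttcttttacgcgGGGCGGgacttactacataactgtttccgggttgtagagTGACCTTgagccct
Uqcrc1 (chr9:108936398-108936697, plus strand): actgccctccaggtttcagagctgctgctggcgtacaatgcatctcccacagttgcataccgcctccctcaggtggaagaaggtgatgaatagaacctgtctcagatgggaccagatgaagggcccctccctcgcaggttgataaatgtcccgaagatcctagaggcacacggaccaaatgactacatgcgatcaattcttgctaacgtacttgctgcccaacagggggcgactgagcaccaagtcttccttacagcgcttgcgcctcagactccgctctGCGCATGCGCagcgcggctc
The 4 promoters shared no motif of the 7. Atp5g1 held 4 CCAAT boxes on its own strand and 1 on the other, Uqcrfs1 held a CRE, Sdhd held an ETS, an SP1 or KLF and an ERR match, and Uqcrc1 held 2 NRF1 matches that overlap on opposite strands. Of the tested members 31 were matched to a promoter entry. The NRF1 motif stood in 7 of them (22.6%) against 2.71% of the 32851 promoters of the same length that were searched. The ETS motif stood in 12 (38.7% against 8.86%), the ERR motif in 5 (16.1% against 4.72%), the CCAAT box in 17 (54.8% against 37.4%), the SP1 or KLF motif in 11 (35.5% against 35.7%), the YY1 motif in 2 (6.45% against 4.05%) and the CRE in 1 (3.23% against 1.79%). Of the matched members 16 were called lower and 15 were not. Between these groups, the NRF1 motif stood in 5 and 2 promoters, the ETS motif in 5 and 7 and the CCAAT box in 7 and 10. The SP1 or KLF motif stood in 7 and 4 and the ERR motif in 2 and 3. The YY1 motif stood in 1 and 1 and the CRE in 1 and 0. No difference in these shares was tested. These are counts of exact letters in 1 window, in which SP1 and YY1 motifs can overlap. Tested members not matched to an entry were Sdhc, Uqcrc2, Uqcrq, Uqcrb, Cox4i1, Cox4i2, Cox6a2, Cox6c, Atp5a1, Atp5f1, Atp5mpl and Atp5s. An unmatched member may still have an entry.

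Complex II was lower in 3 of its 4 genes (75%, against 41.7% of abundant genes), with a median log2 fold change of -0.39. Sdhd, a membrane anchor of succinate dehydrogenase (ENSMUSG00000000171, chr9:50596357-50603812), gave 329, 415, 384 and 421 CPM in EpCAM+ libraries 1 to 4 and 490, 603, 606 and 589 CPM in EpCAM- libraries 1 to 4. Every EpCAM+ library lay below every EpCAM- library, and the log2 fold change was -0.56 (SE 0.10, adjusted p = 0.00192, edgeR). Sdhb, the iron-sulfur subunit (chr4:140961203-140979193), gave 322, 370, 329 and 391 CPM in EpCAM+ and 419, 533, 461 and 528 CPM in EpCAM- libraries, again without overlap, for a log2 fold change of -0.46 (SE 0.10, adjusted p = 0.00493). Sdhc, the other membrane anchor, was at 174 ± 15.8 CPM in EpCAM+ and 217 ± 17.8 CPM in EpCAM- libraries (SD, n = 4 each), a log2 fold change of -0.32 (SE 0.087, adjusted p = 0.0145). Sdha, the flavoprotein that binds succinate, showed the smallest difference of the 4, with 562, 567, 552 and 593 CPM in EpCAM+ and 638, 596, 643 and 743 CPM in EpCAM- libraries. Its values did not overlap either, by a margin of a few CPM, and its log2 fold change of -0.20 missed the threshold without pairing (adjusted p = 0.0671) and passed it in the paired fit (adjusted p = 0.0199). The paired call of Sdha was lost without pair 1 or pair 3 (0.0517 and 0.0945) and with upper-quartile scaling or library totals (0.126 and 0.184). Per length of transcript, as FPKM, Sdha was the most abundant of the 4 (824 ± 71.5 in EpCAM- libraries, SD, n = 4) and Sdhc the least (147 ± 9.56), with Sdhd (450 ± 35.1) and Sdhb (410 ± 37.2) between them and little more than 1 SD apart.

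In complex III, 5 of 8 genes were lower (62.5%, against 41.7% of abundant genes), with a median of -0.42. The genes for the 2 core proteins and for the Rieske iron-sulfur protein were all among them. Uqcrfs1, the Rieske protein (ENSMUSG00000038462, chr13:30540308-30545362), gave 219, 232, 196 and 226 CPM in EpCAM+ libraries and 273, 340, 306 and 318 CPM in EpCAM- libraries. Uqcrc1, a core protein (ENSMUSG00000025651, chr9:108936633-108949623), gave 627, 734, 631 and 742 CPM in EpCAM+ and 868, 986, 997 and 1110 CPM in EpCAM- libraries. Uqcrc2, the other core protein (ENSMUSG00000030884, chr7:120635176-120659524), gave 191, 217, 200 and 211 CPM in EpCAM+ and 247, 293, 289 and 298 CPM in EpCAM- libraries. For these 3 genes the fractions did not overlap, and their log2 fold changes were -0.50 (SE 0.086, adjusted p = 0.00143), -0.54 (SE 0.099, adjusted p = 0.00211) and -0.46 (SE 0.080, adjusted p = 0.00151).

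Of the 5 small subunits of complex III, 2 were lower. Uqcrq gave 110, 156, 124 and 140 CPM in EpCAM+ and 144, 239, 176 and 181 CPM in EpCAM- libraries. Its fractions overlapped, because EpCAM- library 1 lay below EpCAM+ library 2, yet each EpCAM+ library lay below its pair, and the log2 fold change was -0.48 (SE 0.15, adjusted p = 0.0287). The call was lost without EpCAM+ library 1, EpCAM+ library 3 or EpCAM- library 2 (adjusted p = 0.0705, 0.0740 and 0.0623). Uqcr11 was also lower, at 219 ± 37.0 CPM against 285 ± 38.2 CPM (SD, n = 4 each), with a log2 fold change of -0.38 (adjusted p = 0.0399), the largest adjusted p among the members called. Its fractions overlapped, and the call was lost in 4 of the 8 fits that left out 1 library, those without EpCAM+ library 1 or 3 or EpCAM- library 2 or 4 (adjusted p = 0.0820, 0.0978, 0.0920 and 0.0894). Uqcr10 passed in the paired fit alone (log2 fold change -0.18 there, adjusted p = 0.0337, against 0.396 without pairing), and it kept that call in 1 of the 7 further paired fits. Uqcrh, the hinge protein that contacts cytochrome c1, and Uqcrb, which binds near ubiquinone, were called in neither fit, with log2 fold changes of -0.10 and -0.03. Uqcrb gave 357, 477, 418 and 468 CPM in EpCAM+ and 407, 499, 400 and 444 CPM in EpCAM- libraries, and 2 of its 4 pairs went each way.

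Complex IV has 18 members, of which 14 were tested and 6 were lower (42.9%), with a median of -0.32. That share is near the 41.7% of abundant genes that were lower, while 20.8% of all tested genes were. With pairing the share was 71.4%, against 50.1% of abundant genes. In the paired fit 10 were lower, the others being Cox7a2 (adjusted p = 0.0568 without pairing and 0.00735 with it), Cox6b1 (0.109 and 0.00408), Cox7c (0.111 and 0.00766) and Cox4i1 (0.223 and 0.0430). The paired call of Cox4i1 was lost without pair 1, 2 or 3 (0.120, 0.161 and 0.102) and with upper-quartile scaling or library totals (0.257 and 0.249). Cox5a (ENSMUSG00000000088, chr9:57521274-57532426), a nuclear subunit on the matrix side, gave 190, 240, 204 and 229 CPM in EpCAM+ and 261, 347, 292 and 300 CPM in EpCAM- libraries. The fractions did not overlap, and the log2 fold change was -0.48 (SE 0.10, adjusted p = 0.00472). Cox5b, a zinc-binding subunit, was at 249 ± 25.3 CPM against 324 ± 38.2 CPM (SD, n = 4 each), a log2 fold change of -0.38 (adjusted p = 0.0142). Cox6c had 314 ± 56.1 CPM in EpCAM+ and 330 ± 55.6 CPM in EpCAM- libraries and a log2 fold change of -0.07 (adjusted p = 0.735), and Cox7b had -0.33 (SE 0.18, adjusted p = 0.160), with EpCAM- library 2 at 195 CPM and the other 3 EpCAM- libraries at 110 to 125 CPM.

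Several complex IV subunits come as a common form and a form known mainly from heart, muscle, lung or testis. Cox6a1, the common form (ENSMUSG00000041697, chr5:115345642-115348981), gave 371, 469, 417 and 496 CPM in EpCAM+ and 508, 629, 592 and 656 CPM in EpCAM- libraries, without overlap (log2 fold change -0.44, SE 0.11, adjusted p = 0.00946). Cox6a2, the form of heart and skeletal muscle (ENSMUSG00000030785, chr7:128205435-128206387), had 14, 14, 14 and 32 counts in EpCAM+ and 89, 157, 65 and 40 counts in EpCAM- libraries. These are few reads, and the groups did not overlap, for a log2 fold change of -2.43 (SE 0.48, adjusted p = 0.00287). Its pair differences ranged from -0.48 in pair 4 to -3.67 in pair 2. Cox6a2 is also expressed in plasmacytoid dendritic cells and stands in the list of 9 markers for them, of which 6 were tested: 2 others, Ly6d and Ccr9, were higher in EpCAM+ HSPCs. That list summed to 265 to 763 CPM in EpCAM+ and 289 to 413 CPM in EpCAM- libraries. Cox6a2 made 0.223% ± 0.0987 of the Cox6a FPKM in EpCAM+ and 0.895% ± 0.516 in EpCAM- libraries (SD, n = 4 each), so Cox6a1 carried nearly all of it in both.

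Cox6b2, known as the testis form of Cox6b (ENSMUSG00000051811, chr7:4751792-4753094), was not rare here. It gave 54.8, 68.7, 56.5 and 63.4 CPM in EpCAM+ and 75.7, 89.1, 104 and 106 CPM in EpCAM- libraries, with no overlap (log2 fold change -0.62, SE 0.12, adjusted p = 0.00237). The common form Cox6b1 was at 314 ± 43.4 CPM in EpCAM+ and 383 ± 64.4 CPM in EpCAM- libraries (SD, n = 4 each), with overlap and a log2 fold change of -0.29. Per length, Cox6b2 made 14.4% ± 0.970 of the Cox6b FPKM in EpCAM+ and 17.5% ± 2.42 in EpCAM- libraries (SD, n = 4 each), a difference that did not pass (exact two-sided permutation test, p = 0.0857). In all, 9 such shares were compared, and 4 libraries against 4 allow no p below 0.0286.

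The Cox7a family has 3 members here. Cox7a2 gave 101, 122, 114 and 119 CPM in EpCAM+ and 117, 175, 130 and 142 CPM in EpCAM- libraries. Cox7a2l gave 147, 156, 146 and 154 CPM in EpCAM+ and 138, 168, 145 and 136 CPM in EpCAM- libraries, and it was lower in the EpCAM+ library of 1 pair of 4 (log2 fold change 0.04, adjusted p = 0.700). Cox7a2l made 36.9% ± 1.48 of the FPKM of the 3 Cox7a genes in EpCAM+ and 31.6% ± 2.28 in EpCAM- libraries (SD, n = 4 each; exact two-sided permutation test, p = 0.0286, 0.0515 after adjustment over the 9 shares). Cox7a1, the muscle form, had 10, 17, 7 and 14 counts in EpCAM+ and 4, 9, 4 and 7 counts in EpCAM- libraries, too few for a test. Cox4i1 was at 635 ± 75.4 CPM in EpCAM+ and 726 ± 110 CPM in EpCAM- libraries (SD, n = 4 each; log2 fold change -0.19). Cox4i2, the oxygen-regulated form found mainly in lung, had 7 to 46 counts per library and no stable direction (log2 fold change 0.11, SE 0.58, adjusted p = 0.895). Cox8a was lower (421 ± 35.5 CPM against 536 ± 53.1 CPM, SD, n = 4 each; log2 fold change -0.35, SE 0.093, adjusted p = 0.0130), while its relatives Cox8b and Cox8c had 2 counts and 0 counts in all 8 libraries together, and Cox7b2, the relative of Cox7b, had 1.

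Complex V was lower in 8 of 17 tested genes (47.1%), with a median of -0.27, and in 11 (64.7%) with pairing. Among abundant genes 41.7% were lower, and 50.1% with pairing. The 3 genes for the c subunit, whose copies form the rotating membrane ring, were all lower. They encode the same mature protein behind different import signals. Atp5g1 (ENSMUSG00000006057, chr11:96068852-96075670) had the smallest adjusted p of all members, with 217, 295, 272 and 319 CPM in EpCAM+ libraries and 403, 542, 529 and 575 CPM in EpCAM- libraries. Its highest EpCAM+ value was well below its lowest EpCAM- value, the log2 fold change was -0.89 (SE 0.14, adjusted p = 0.000877), and the difference was alike in the 4 pairs, from -0.85 to -0.96. Atp5g3 gave 374, 489, 457 and 490 CPM in EpCAM+ and 515, 688, 565 and 702 CPM in EpCAM- libraries (log2 fold change -0.45, SE 0.12, adjusted p = 0.0148). Atp5g2 gave 187, 221, 193 and 221 CPM in EpCAM+ and 223, 298, 242 and 280 CPM in EpCAM- libraries (log2 fold change -0.35, SE 0.10, adjusted p = 0.0219), where the 2 fractions nearly touched. The Atp5g2 call was lost without EpCAM+ library 1, EpCAM+ library 3 or EpCAM- library 4 (adjusted p = 0.0532, 0.0635 and 0.0532).

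The share of Atp5g1 in the FPKM of the 3 c subunit genes was 9.48%, 10.2%, 10.3% and 10.9% in EpCAM+ libraries and 13.0%, 13.0%, 15.2% and 13.8% in EpCAM- libraries, without overlap (exact two-sided permutation test, p = 0.0286, 0.0515 after adjustment over the 9 shares). The share of Atp5g2 was 31.8% ± 1.59 in EpCAM+ and 29.2% ± 0.904 in EpCAM- libraries (SD, n = 4 each), with the same p values. Atp5g3 was the most abundant of the 3 per length in both fractions, at 58.0% ± 1.23 and 57.1% ± 0.917 of their FPKM (SD, n = 4 each; exact permutation p = 0.343).

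**Figure D4:**
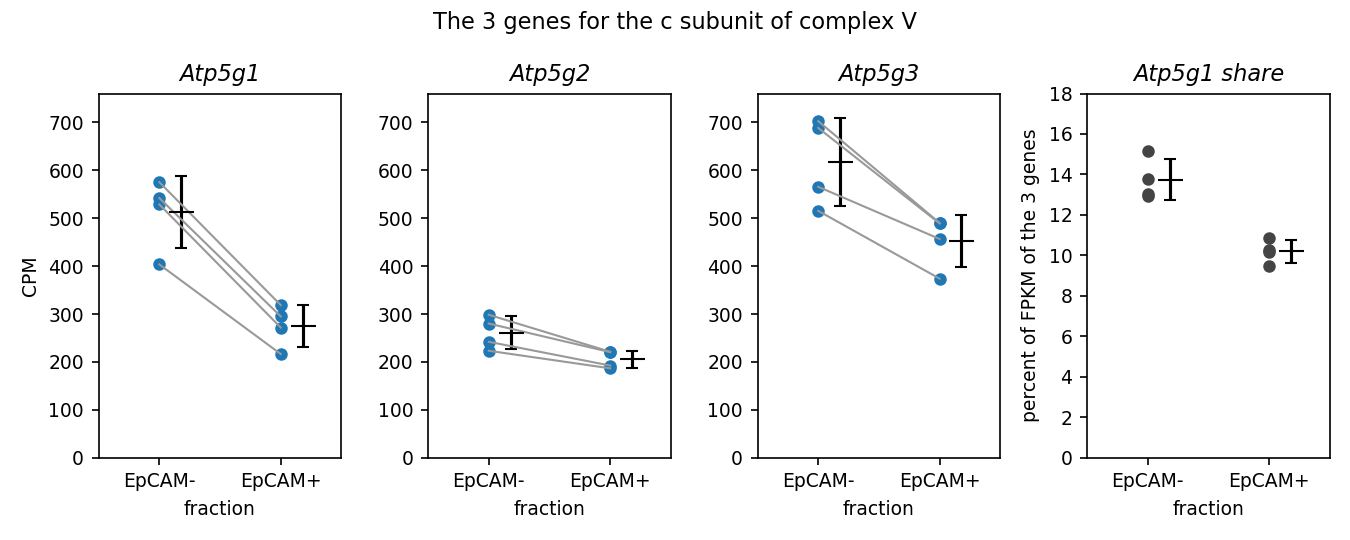
CPM of Atp5g1, Atp5g2 and Atp5g3 in each library, with gray lines joining libraries of the same number and bars at the mean ± SD (n = 4), and at right the percent of the FPKM of the 3 genes that Atp5g1 held. Atp5g1 fell from 403 to 575 CPM in EpCAM- libraries to 217 to 319 CPM in EpCAM+ libraries, and its share was 13.0% to 15.2% in EpCAM- and 9.48% to 10.9% in EpCAM+ libraries.

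Of the 5 genes for the F1 part, where ATP is made, 3 were lower. Atp5b, the catalytic beta subunit (ENSMUSG00000025393, chr10:128083273-128090391), was the most abundant member on the FPKM scale (3215 ± 268 in EpCAM+ and 4279 ± 376 in EpCAM- libraries, SD, n = 4 each). It gave 2456, 2817, 2723 and 2960 CPM in EpCAM+ and 3387, 3823, 3809 and 4425 CPM in EpCAM- libraries, a log2 fold change of -0.50 (SE 0.11, adjusted p = 0.00420) without overlap. Atp5a1, the alpha subunit, gave 1217, 1413, 1316 and 1433 CPM in EpCAM+ and 1588, 1866, 1789 and 1979 CPM in EpCAM- libraries (log2 fold change -0.43, SE 0.095, adjusted p = 0.00545), also without overlap. The delta subunit gene Atp5d (ENSMUSG00000003072, chr10:80138632-80145818) gave 365, 418, 368 and 411 CPM in EpCAM+ and 456, 571, 526 and 596 CPM in EpCAM- libraries (log2 fold change -0.46, SE 0.096, adjusted p = 0.00400). Of the remaining F1 genes, Atp5c1, the gamma subunit, passed with pairing alone (log2 fold change -0.22 there, adjusted p = 0.0162, against 0.112 without) and kept that call in 3 of the 7 further paired fits, and Atp5e, the epsilon subunit, had 61.3, 80.5, 72.7 and 70.9 CPM in EpCAM+ and 60.0, 107, 64.3 and 60.2 CPM in EpCAM- libraries. Only 1 of the 4 pairs of Atp5e had the lower value in the EpCAM+ library.

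The peripheral stalk, which holds the F1 part still, was lower in 2 of 4 genes. Atp5o, the oligomycin sensitivity protein (173 ± 24.0 CPM against 227 ± 25.2 CPM, SD, n = 4 each), had a log2 fold change of -0.39 (adjusted p = 0.0186), and Atp5f1, the b subunit (616 ± 53.6 CPM against 740 ± 59.9 CPM, SD, n = 4 each), had -0.27 (adjusted p = 0.0376). Atp5f1 passed in 3 of the 8 fits that left out 1 library, being lost without EpCAM+ library 1 or 3 or EpCAM- library 2, 3 or 4, and Atp5o in 7, being lost without EpCAM+ library 3 (adjusted p = 0.0568). Atp5h, the d subunit (-0.15, adjusted p = 0.339), and Atp5j, coupling factor 6 (-0.09, adjusted p = 0.532), were called in neither fit. Of the 4 genes for small membrane subunits, which take part in dimers of the synthase, 0 passed without pairing, with log2 fold changes from -0.31 to -0.09. Atp5mpl (adjusted p = 0.0927 without pairing and 0.0103 with it) and Atp5k (0.207 and 0.0460, kept in 2 of the 7 further paired fits) passed in the paired fit, whereas Atp5l and Atp5j2 did not. Atp5s, factor B, had a log2 fold change of -0.01 (41.3 ± 3.53 CPM against 41.6 ± 4.03 CPM, SD, n = 4 each). A second row for Atp5o, ENSMUSG00000116933, which overlaps the tested one, had 0 counts.

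The spread of calls within complexes was noticed in these data and is given as counts. The genes for the core and iron-sulfur proteins of complex III were lower in 3 of 3 cases (log2 fold changes -0.54 to -0.46) and those for its small subunits in 2 of 5 (-0.48 to -0.03). In complex V the c ring was lower in 3 of 3 (-0.89 to -0.35), the F1 part in 3 of 5 (-0.50 to -0.03), the stalk in 2 of 4 (-0.39 to -0.09) and the small membrane subunits in 0 of 4. With pairing the counts were 3 of 3 and 3 of 5 in complex III. In complex V they were 3 of 3, 4 of 5, 2 of 4 and 2 of 4, in the same order. Of all tested genes 20.8% were lower and of abundant genes 41.7%, or 24.7% and 50.1% with pairing. The difference between the groups of subunits was not tested.

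Mitochondrial DNA encodes further subunits. Of 6 such genes for complexes III, IV and V, 5 were tested; 1 rose, 0 fell, and the median was -0.11. The gene called higher was mt-Co1, the catalytic subunit of complex IV, at 1318 CPM in EpCAM+ and 1031 CPM in EpCAM- libraries (log2 fold change 0.35, SE 0.12, adjusted p = 0.0382). Its fractions overlapped. mt-Cytb, the cytochrome b of complex III, was at 1423 and 1489 CPM (-0.07, adjusted p = 0.649), and mt-Atp6 of complex V was at 29.1 and 31.5 CPM (-0.11, adjusted p = 0.707). How reads that also align to nuclear copies of mitochondrial DNA were counted is not given in the sources used here.

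Genes around the complexes were taken from fixed lists. Of 36 nuclear complex I subunits 12 were lower (33.3%) and 0 higher, with a median of -0.22, and 22 were lower with pairing (61.1%). Among all tested genes 20.8% were lower and among abundant genes 41.7%, or 24.7% and 50.1% with pairing. Genes for mitochondrial ribosomal proteins, taken by symbol (Mrpl and Mrps), fell in a larger share than the members. Of 77 tested, 58 were lower (75.3%) and 0 higher, with a median of -0.38, and 68 were lower with pairing (88.3%). The shares lower in the assembly lists below were 54.5% for complex III with the cytochromes, 41.4% for IV, 27.3% for V and 25% for II. Of the complex I subunits, the 3 with the smallest adjusted p were Ndufa10 (-0.60), Ndufs1 (-0.59) and Ndufv1 (-0.56). For complex III assembly and the cytochromes, 6 of 11 were lower and 1 higher (median -0.35): Cyc1, cytochrome c1, fell from 629 to 389 CPM (log2 fold change -0.69, SE 0.093, adjusted p = 0.000490), Cycs, cytochrome c itself, from 501 to 325 CPM (-0.62, SE 0.091), and Hccs, which attaches heme to both, from 67.0 to 49.8 CPM (-0.43), while Ttc19 was higher. For complex IV assembly 12 of 29 tested genes were lower and 0 higher (median -0.24), against 14 lower and 1 higher (Cox14) with pairing and 11 lower and 2 higher (Cox14 and Cox20) with a length offset. The lower genes were led by Lrpprc (-0.62), which stabilizes mitochondrial messenger RNAs, Cox10 (-0.57) and Sco1 (-0.45), which act in heme A synthesis and copper delivery.

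Complex V assembly and partners were lower in 3 of 11 (median -0.30) and in 7 with pairing; the 3 were Slc25a5, an ADP/ATP carrier (-0.49), Atpaf2, an F1 assembly factor (-0.41), and Slc25a3, the phosphate carrier (-0.46). For complex II assembly 1 of 4 was lower, Sdhaf2 (-0.37), which helps attach flavin to Sdha. Of 17 regulators of respiratory genes 3 were lower (17.6%) and 2 higher (11.8%), shares below the 20.8% and 21.8% of all tested genes, and 5 were lower with pairing and 6 with a length offset. Ppargc1a, the coactivator PGC-1alpha, was higher at low levels (2.69 against 0.540 CPM, log2 fold change 2.29, SE 0.39, adjusted p = 0.00142), as was Gabpb1 (0.33), a subunit of GABP, while Tfb2m (-0.32), Myc (-0.40) and Gabpa (-0.31), the other GABP subunit, were lower.

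**Figure D5:**
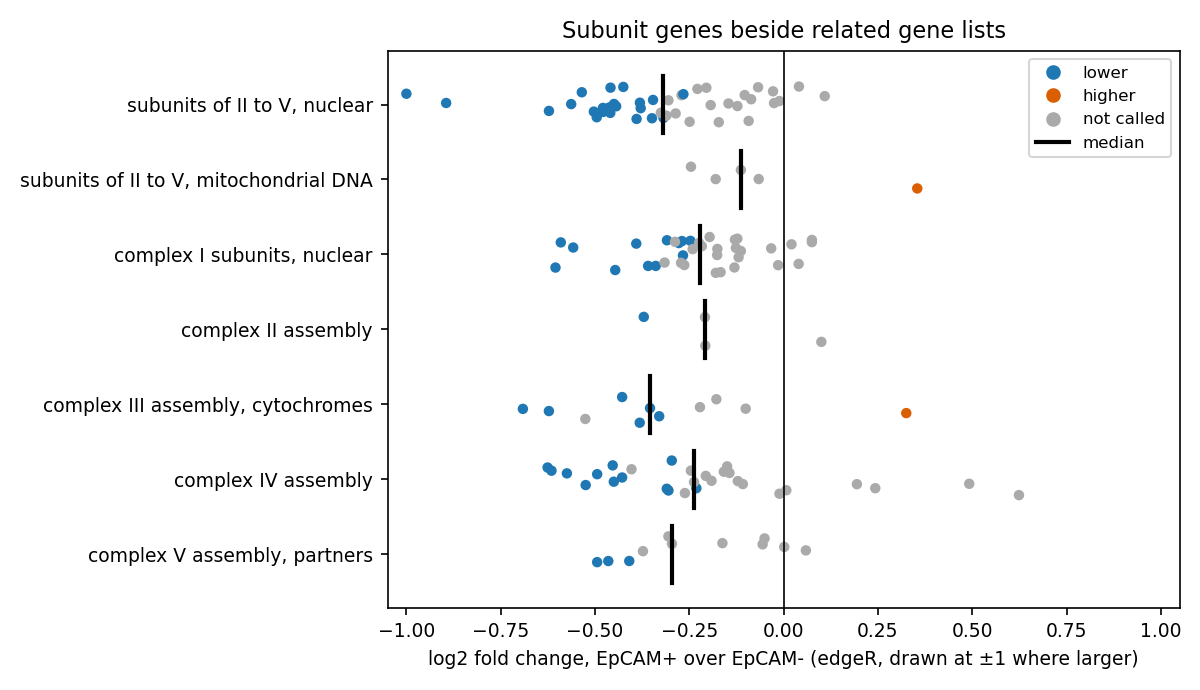
Log2 fold change (EpCAM+ over EpCAM-, edgeR) of each tested gene, as points, in the nuclear subunits of complexes II to V and 6 related lists, with black lines at the medians; Cox6a2, at -2.43, is drawn at -1. The nuclear subunits have their median at -0.32 and the subunits encoded by mitochondrial DNA at -0.11, with mt-Co1 to the right of 0.

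Gene length and overlapping genes were checked because subunit messages are short. With a smooth trend on gene length taken out, 23 members were lower and 0 higher, with a median of -0.27, and with pairing as well 30 were lower. That length is the deposited length column. For some members it exceeds the length that FPKM imply, as for Atp5b (4237 against 874 bases) and Cox6c (3567 against 965). The effect of transcript length itself was therefore not tested. Of the 43 tested members 13 overlap a gene on the opposite strand, and since the kit does not mark strand, reads of such pairs cannot be told apart. For Cox4i1, Cox6c, Atp5f1, Atp5j and Uqcrh the overlapping gene had over 100 counts in at least 1 library. Of 8 annotated pseudogene rows with matching symbols none had more than 21 counts in a library, and how reads that fit several places were counted is not given in the sources used here.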

How the data were processed

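RNA was amplified with SMART-Seq v4 and sequenced as paired ends in 4 Zeb1-/- EpCAM+ and 4 Zeb1-/- EpCAM- LSK libraries. Per the submitters' processing notes the authors used STAR 2.6.1d, featureCounts 1.5.0-p3 and DESeq2 1.20.0 with GRCm38.p6. The authors deposited raw read counts per gene, which all tests use, and FPKM, used here only to compare levels between genes; FPKM imply shorter lengths than the length column (median ratio 2.11). Their fold changes and p-values were not used, and 0 columns of samples were left unmapped.

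Genes passing edgeR's filterByExpr (minimum count 10) were scaled by TMM and tested with edgeR 4.0.16 in R 4.3.3 (quasi-likelihood, two-sided, Benjamini-Hochberg over 13560 genes, threshold 0.05). SE came from the F statistic. CPM use TMM-scaled library sizes, and log2 CPM use a prior count of 2. Shares of FPKM were compared by exact permutation. Figures used Python 3.11.15 and matplotlib 3.10.9. The procedure was tested on simulated data. DESeq2 1.42.0, limma 3.58.1, other scalings and filters, a length offset, a replicate block and left-out libraries were alternatives. Counting error is the least error; reads carry no molecular identifiers.

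Libraries with the same replicate number were treated as pairs in the paired fit. Their deviations from fraction means correlated across genes at 0.205 to 0.356 in the 4 same-number pairs and at -0.216 to 0.0396 in 12 others. What the shared numbers stand for, such as a mouse or a batch, is not given. No 2 libraries of a fraction were duplicates (chi-square over its degrees of freedom was 9.80 to 91.7). According to the labels there were 4 mice per genotype, but libraries are not tied to mice, and p-values measure the spread between these samples.

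Members, lists, roles and the cutoff for abundant genes were chosen with earlier results of these data known. Genes named are the 4 members per complex with the smallest adjusted p, paralog families, up to 3 called genes per list, Epcam and Zeb1; other members are given more briefly. Mpo, Jchain, Kit, Ly6a, Lmo2, Myb, Cox14, Cox20, Ttc19, Ly6d, Ccr9, Cma1, Tlr11, mt-Cytb, mt-Atp6, Ighm, Pax5, Gp6, Myc and Gabpa were named after their values were seen. Markers for megakaryocytes, neutrophils, monocytes, B cells, T cells, NK cells and lymphoid-primed progenitors were also summed.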

Additional observations from a re-analysis of the deposited data

Results flagged for a closer look

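Of 50 groups of 4 values checked (the named members in each fraction), 2 held a library far from the other 3, where chance flags about 1 in 20. For Sdhd, EpCAM- library 1 gave 490 CPM (489.7), below the 589 to 606 CPM of the other EpCAM- libraries and still above every EpCAM+ library. For Cox6a2, EpCAM+ library 4 gave 2.08 CPM (2.075, from 32 counts) against 0.782 to 0.915 CPM in the other EpCAM+ libraries, each from 14 counts, and below every EpCAM- library.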

How the results depend on the processing

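The count of lower members (22) ranged from 16 with upper-quartile scaling and 18 with library totals to 24 with DESeq2 and 31 with the replicate block. It was 17 to 26 with each library left out, 27 to 33 with each pair left out of the paired fit, and 24 and 25 with both scalings under pairing (added after seeing the data). No alternative called a member higher. The median log2 fold change ran from -0.39 to -0.21. Upper-quartile scaling and library totals moved the median of all tested genes to 0.11, with 15.4% and 15.2% of them lower and 26.9% and 25.6% higher; Sdhc, Uqcrq, Uqcr11, Atp5o, Atp5g2 and Atp5f1 lost their calls with the first (adjusted p = 0.0581, 0.0676, 0.106, 0.0566, 0.0720 and 0.149), and Uqcrq, Uqcr11, Atp5g2 and Atp5f1 with the second (0.0582, 0.0856, 0.0540 and 0.131). Atp5f1 also lost it with either other filter (0.0508 and 0.0509). Complexes III and V had 3 and 5 lower genes with upper-quartile scaling. The replicate block ended no call of a member. Among the lists it raised, for example, the lower genes from 14 to 16 for proliferation, 6 to 7 for erythroid and 4 to 5 for mast cell or basophil markers, and the higher ones from 3 to 4 for plasma cell and 3 to 5 for LSK markers. Cox4i2 turned negative without EpCAM+ replicate 2 (-0.3091) or EpCAM- replicates 1, 3 or 4 (-0.11, -0.02 and -0.17) and was 0.96 without EpCAM- replicate 2, and Cox7a2l (-0.0074) in the paired fit without replicate 4; the cause was not tested. Members near 0 also changed sign. Cox6c, Atp5e, Uqcrb, Atp5j2 and Atp5s turned positive with upper-quartile scaling (up to 0.0751) and library totals (up to 0.0739). Without EpCAM- library 2 they and Atp5l did so (up to 0.2055), and some did in other fits, with no call. Of the members called, 17 of 22 kept the call in all 8 fits that left out 1 library. Cox6a2, with 14 to 157 counts, is the called member with the fewest reads; Cox4i2 had 7 to 46.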

Other observations

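Marker sums that the comparison did not turn on were, in EpCAM+ and EpCAM- libraries respectively, 2037 to 20830 and 767 to 1398 CPM for lymphoid-primed progenitors, which the immunoglobulin gene Ighm led, 134 to 370 and 88.0 to 287 CPM for megakaryocytes, 79.8 to 148 and 47.4 to 201 CPM for neutrophils, 639 to 955 and 499 to 1244 CPM for monocytes or macrophages, 77.5 to 128 and 49.9 to 84.7 CPM for B cells, 54.8 to 67.5 and 17.2 to 30.2 CPM for T cells, and 1.25 to 7.13 and 0.546 to 1.40 CPM for NK cells. Of the 7 lymphoid-primed markers tested, 2 were lower, 2 higher and 3 not called, with a median log2 fold change of -0.325. With pairing 3 of these 7 were lower and 2 higher. Pax5, which defines B cells, and Gp6, a platelet receptor, were at 0 counts in all 8 libraries.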
